A study of Homo sapiens with 6 samples.

Results

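MHC class I molecules show fragments of a cell's own proteins at its surface, where cytotoxic T cells and natural killer cells read them. A class I heavy chain folds with beta-2-microglobulin in the endoplasmic reticulum and is held there, by calreticulin and tapasin, beside the TAP transporter until a peptide pumped in from the cytosol has bound. Interferons and NF-kB are known inducers of these genes in many cell types, and TBK1 is a kinase of innate immune signalling that lies upstream of interferon production and touches NF-kB signalling. The 9 genes described here are the heavy chains HLA-B, HLA-C, HLA-E and HLA-F, the light chain B2M, the transporter subunits TAP1 and TAP2, tapasin (TAPBP) and calreticulin (CALR). They were taken by name from the platform annotation, where they had 15 of the array's 47321 probes. That rule used no measured value, but the list of names was chosen with earlier results of these data known.

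RNA of 6 samples labelled HCC1954, a line grown from a HER2-positive breast carcinoma, was hybridised to Illumina HumanHT-12 V4.0 arrays. For 3 days, 3 samples were kept in vehicle and 3 in TBK1 inhibitor II, a compound named after its target, and the labels give no dose, no name for the vehicle and no genotype. All 6 come from 1 cell line, and no label says whether the 3 samples of a group were separate cultures. A p-value here is set against the spread among these 6 samples alone, and that spread may be technical. The median signal intensity ranged from 98.5 to 138.1 in vehicle and from 110.7 to 130.7 in inhibitor samples, and 18325 to 20741 probes were detected per array. Of 11 luminal epithelial markers 5 were detected on all 6 arrays while KRT19, KRT7 and CLDN3 were detected on none, and the summed normalized level of that list was 909 to 940 in vehicle and 749 to 933 in inhibitor samples. ERBB2, which encodes HER2, had an intensity of 308.8 to 619.6 on 1 probe, and its 2 other probes were detected on 0 arrays. These levels leave the labelled cell type in doubt, and the samples are called by their label only. Of 12 leukocyte markers 0 were detected on all 6 arrays and 10 on none, PTPRC, the pan-leukocyte phosphatase, among them, and all 4 endothelial markers were detected on none. The summed normalized level of the leukocyte list was 318 to 323 in vehicle and 333 to 376 in inhibitor samples, and that of the fibroblast list, with 3 of 7 detected on all arrays and COL1A2 and PDGFRB on none, was 894 to 974 and 1122 to 1184. The monocyte receptor gene CD14 and the matrix gene DCN, each detected on 2 of 3 vehicle arrays and named after their values were seen, rose by 1.06 ± 0.25 and 1.29 ± 0.21 in log2 units (SE, n = 3 per group, limma adjusted p = 0.0429 and 0.0198), were 0.32 and 0.41 with the deposited processed values, and lost the call in 8 and 4 of 13 alternative settings. The other probe of CD14 and the other probes of DCN were detected on 0 arrays. Of 2 tested leukocyte markers 1 lay above 0 and 1 below. The latter, CD79A, had -0.23 on its brighter probe and 0.09 on its other tested probe. Of 4 tested fibroblast markers 4 lay above 0. The part of CD14 and DCN in the results was not tested.

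Class I promoters are known for a shared layout, in which an NF-kB site and an element read by interferon regulatory factors stand upstream of X2 and Y boxes, which bind CREB family proteins and NF-Y. The stretches that hold these elements are shown because known regulators of class I genes bind such elements. RefSeq promoters of build GRCh38.p14 covered 8 of the 9 genes, from 250 bases before to 50 after the start site. Capitals mark the matches upstream of the start on either strand, neighbouring matches that overlap run together, each line is in the gene's direction, and for TAP1 the first of its listed starts was used.
HLA-B (chr6:31357223-31357364, minus strand): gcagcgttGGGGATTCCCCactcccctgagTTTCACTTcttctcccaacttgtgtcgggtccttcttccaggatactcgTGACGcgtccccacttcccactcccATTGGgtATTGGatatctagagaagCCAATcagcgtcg
HLA-C (chr6:31272136-31272292, minus strand): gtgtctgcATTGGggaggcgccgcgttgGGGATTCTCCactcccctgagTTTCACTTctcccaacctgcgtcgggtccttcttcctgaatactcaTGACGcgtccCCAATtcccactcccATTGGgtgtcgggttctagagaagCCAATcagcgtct
HLA-F (chr6:29723270-29723389, plus strand): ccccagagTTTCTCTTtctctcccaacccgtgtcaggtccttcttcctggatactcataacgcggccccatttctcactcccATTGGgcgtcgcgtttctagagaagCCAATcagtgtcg
B2M (chr15:44711367-44711480, plus strand): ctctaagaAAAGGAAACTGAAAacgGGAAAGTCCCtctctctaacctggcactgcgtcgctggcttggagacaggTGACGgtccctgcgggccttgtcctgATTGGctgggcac
TAP1 (chr6:32853759-32853954, minus strand): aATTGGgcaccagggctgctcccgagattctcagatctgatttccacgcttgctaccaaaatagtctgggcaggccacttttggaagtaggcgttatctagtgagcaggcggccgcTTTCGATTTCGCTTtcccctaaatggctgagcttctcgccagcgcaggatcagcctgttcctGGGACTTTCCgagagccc
TAP2 (chr6:32838762-32838809, minus strand): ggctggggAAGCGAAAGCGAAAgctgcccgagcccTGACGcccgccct
TAPBP (chr6:33314079-33314142, minus strand): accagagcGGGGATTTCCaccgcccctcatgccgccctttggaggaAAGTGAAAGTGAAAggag
CALR (chr19:12938376-12938527, plus strand): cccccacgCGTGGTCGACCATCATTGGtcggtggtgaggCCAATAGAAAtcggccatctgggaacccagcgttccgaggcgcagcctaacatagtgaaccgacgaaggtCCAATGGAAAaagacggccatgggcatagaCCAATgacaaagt
HLA-B and HLA-C share the order of NF-kB match, core of interferon regulatory factors, TGACG of the X2 box and ATTGG of the Y box, and HLA-C has a further ATTGG upstream of them. HLA-F has the interferon core and 2 Y box matches, but in its window none for NF-kB or TGACG. In B2M the interferon cores stand upstream of the NF-kB match.

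The core AANNGAAA of interferon regulatory factors was found in 8 of 8 windows, against 22.8% of the 35116 promoters in the table. This form was chosen after the letters of these windows had been seen, and in CALR both matches overlap CCAAT. The longer GAAANNGAAA was found in 5 of 8, B2M, HLA-F, TAP1, TAP2 and TAPBP, against 3.57% of all promoters. The NF-kB consensus was matched in 5 of 8, B2M, HLA-B, HLA-C, TAP1 and TAPBP (11.3% of all), TGACG in 4 of 8 (24.6%) and ATTGG in 6 of 8 (34.6%). CALR alone held the element of the unfolded protein response, CCAAT and CCACG with 9 bases of any kind between them, found in 0.0769% of all promoters, and a Y box match overlaps it. The second listed start of TAP1 held 0 matches for each of the 5 motifs and is not among the 8 windows. The shares of all promoters count every listed start of a gene. A match describes letters only and does not show a bound factor.

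**Figure D1:**
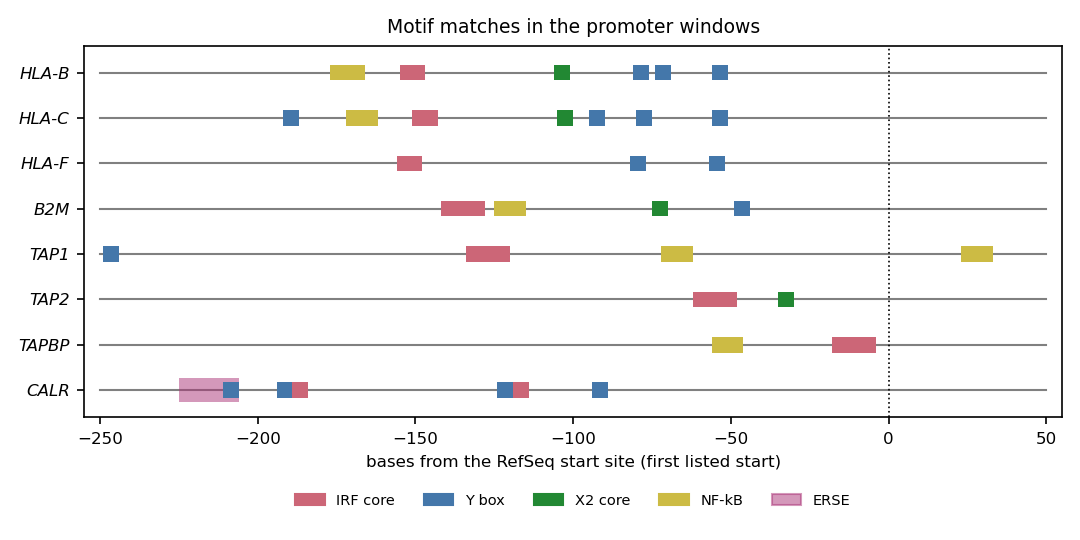
Motif matches on either strand in the promoter windows of 8 genes, plotted as bases from the RefSeq start site, with 1 colour for each of 5 motifs. HLA-B and HLA-C hold the elements in the same order, and CALR holds 4 Y box matches and the ERSE, the element of the unfolded protein response.

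No class I or peptide loading gene passed the test after 3 days with the inhibitor. All 9 genes were detected on all 6 arrays with at least 1 probe and all were tested, and 0 of 9 had a limma adjusted p under 0.05, where 631 of 11582 genes did (5.45%, 3.59% higher and 1.86% lower). HLA-F alone of the 9 had an unadjusted p under 0.05, in the lower direction, where 24.4% of all genes had one (14.7% higher and 9.73% lower). Of the 9 log2 fold changes 8 were below 0, as were 46.3% of those of all genes (53.7% were above), and they ran from -0.41 for HLA-F to 0.06 for B2M, with a median of -0.13 against 0.03 for all genes. With median centring in place of quantile normalization, which moved the median of all genes to 0.24, only 2 of the 9 lay below 0 and their median was 0.12, while 8 of 9 lay below the median of all genes under both scalings. Without vehicle replicate 2 or without inhibitor replicate 3, 5 of 9 lay below 0. The number of genes called in the whole table also rested on single arrays, since it was 347 without vehicle replicate 1, 218 without vehicle replicate 3, 37 without inhibitor replicate 1 and 4 without inhibitor replicate 2 or 3, and with median centring 674 were higher and 36 lower against 416 and 215.

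**Figure D2:**
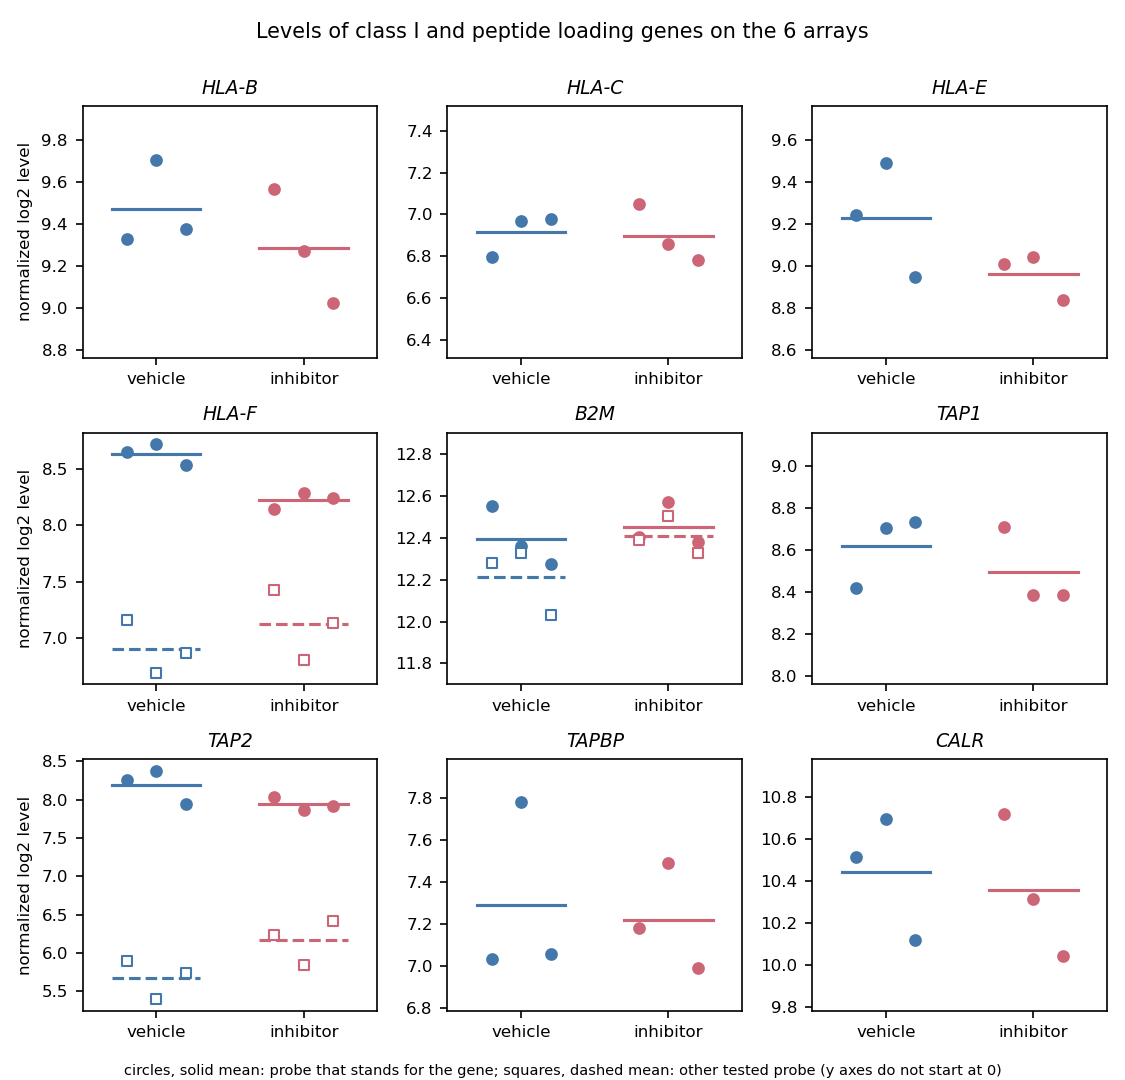
Normalized log2 levels of the 9 genes on each array, vehicle in blue and inhibitor in red, with replicates 1 to 3 from left to right and lines at the group means. Only the circles of HLA-F and the squares of B2M separate the groups.

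Among the classical heavy chains, which present peptides to cytotoxic T cells, HLA-B had normalized log2 levels of 9.33, 9.70 and 9.38 in vehicle replicates 1 to 3 and 9.57, 9.27 and 9.02 in inhibitor replicates 1 to 3. Inhibitor replicate 1 lay above 2 of the vehicle samples, and the groups overlapped. Its log2 fold change was -0.18 ± 0.19 (SE, n = 3 per group, limma adjusted p = 0.608), and the 95% interval of the fold ran from 0.653 to 1.19. HLA-C, the other classical chain, had 6.80, 6.97 and 6.98 in vehicle and 7.05, 6.86 and 6.78 in inhibitor samples. Both the highest and the lowest of the 6 values belonged to inhibitor samples, with all vehicle samples between them. The log2 fold change of HLA-C was -0.02 ± 0.16 (limma adjusted p = 0.956), with a fold between 0.774 and 1.26. Its second probe was detected on 0 arrays and was not tested. HLA genes are polymorphic and alike in sequence, and the probe sequences were not used here, so signal from a related HLA transcript or a mismatch with this line's alleles was not tested.

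HLA-E presents leader peptides of other class I chains to natural killer receptors, and its levels were 9.24, 9.49 and 8.95 in vehicle and 9.01, 9.04 and 8.83 in inhibitor samples. Vehicle replicates 1 and 2 were above all inhibitor samples, while vehicle replicate 3 lay among them. The log2 fold change was -0.27 ± 0.18 (limma adjusted p = 0.406), with a fold between 0.628 and 1.10, and it was -0.13 without vehicle replicate 2 and -0.022 with median centring. HLA-F, a nonclassical chain with a restricted peptide repertoire, was measured by a pair of probes that moved in opposite directions. On the probe that stands for it (ILMN_2186806, annotated to NM_018950) the levels were 8.65, 8.72 and 8.54 in vehicle and 8.15, 8.29 and 8.24 in inhibitor samples. The groups did not overlap there, which was so for 1 of these 9 genes and for 31.5% of all genes (13% lower and 18.5% higher). The log2 fold change was -0.41 ± 0.15, with a fold between 0.596 and 0.947, and it missed the threshold over all genes (limma adjusted p = 0.132). It passed without background correction (-0.32, adjusted p = 0.0498) and with the deposited processed values (-0.30, adjusted p = 0.0409), with median centring it was -0.15, where the median gene was at 0.24, and averaged over both HLA-F probes it was -0.10. The other probe of HLA-F (ILMN_1762861, annotated to NM_001098479) had 7.16, 6.69 and 6.87 in vehicle and 7.42, 6.80 and 7.13 in inhibitor samples, a log2 fold change of 0.21 ± 0.21 (adjusted p = 0.579 over all kept probes).

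B2M, the light chain that every class I heavy chain needs, had levels of 12.55, 12.36 and 12.27 in vehicle and 12.41, 12.57 and 12.38 in inhibitor samples on its brighter probe. The groups overlapped, with a log2 fold change of 0.06 ± 0.16 (limma adjusted p = 0.860) and a fold between 0.815 and 1.33. On its other probe the levels were 12.28, 12.33 and 12.03 in vehicle and 12.39, 12.50 and 12.33 in inhibitor samples, and every inhibitor sample lay above every vehicle sample by a margin smaller than the spread within either group. That log2 fold change was 0.20 ± 0.16 (adjusted p = 0.501 over all kept probes).

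The transporter subunit TAP1 had levels of 8.42, 8.71 and 8.74 in vehicle and 8.71, 8.39 and 8.39 in inhibitor samples. Inhibitor replicate 1 stood with vehicle replicates 2 and 3, and vehicle replicate 1 with the other inhibitor samples. Its log2 fold change was -0.13 ± 0.17 (limma adjusted p = 0.699), with a fold between 0.700 and 1.20. TAP2, the other subunit, also had probes that differed in direction. The brighter (ILMN_1777565, annotated to NM_000544) had 8.25, 8.38 and 7.95 in vehicle and 8.04, 7.87 and 7.91 in inhibitor samples, overlapping at vehicle replicate 3, and a log2 fold change of -0.25 ± 0.17 (limma adjusted p = 0.397) with a fold between 0.646 and 1.09. The dimmer (ILMN_1759250, annotated to NM_018833) had 5.90, 5.40 and 5.74 in vehicle and 6.23, 5.85 and 6.42 in inhibitor samples, with inhibitor replicate 2 below vehicle replicate 1. Its log2 fold change of 0.49 ± 0.20 (adjusted p = 0.197 over all kept probes) was 0.16 with the deposited processed values. Averaged over both probes TAP2 stood at 0.12.

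Tapasin, which bridges the heavy chain and TAP, had levels of 7.03, 7.78 and 7.06 in vehicle and 7.18, 7.49 and 6.99 in inhibitor samples. Replicate 2 was the highest of both groups, and the vehicle group spanned the inhibitor group except for its lowest sample. The log2 fold change was -0.07 ± 0.24 (limma adjusted p = 0.887) and a fold between 0.659 and 1.38. Its 2 other probes were detected on 0 arrays. Calreticulin, a lectin chaperone of the loading complex and of glycoprotein folding at large, had 10.51, 10.70 and 10.12 in vehicle and 10.72, 10.31 and 10.04 in inhibitor samples. The highest and the lowest value both belonged to inhibitor samples, with a log2 fold change of -0.08 ± 0.22 (limma adjusted p = 0.857) and a fold between 0.666 and 1.34.

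**Figure D3:**
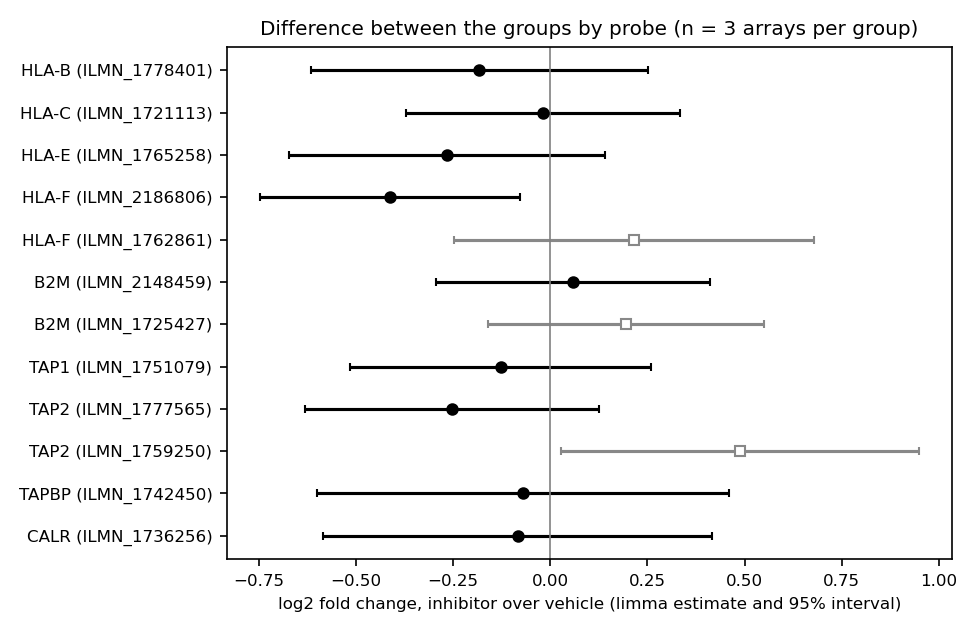
Log2 fold change of inhibitor over vehicle for the 12 tested probes of the 9 genes, with limma's 95% interval; black circles stand for the gene and grey squares are other probes. The intervals of ILMN_2186806 (HLA-F, below 0) and ILMN_1759250 (TAP2, above 0) do not cross 0, and neither passed after adjustment.

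The probe balance was compared between the groups for the 3 genes with a pair of tested probes, after their values had been seen. Brighter minus dimmer probe of HLA-F gave 1.49, 2.04 and 1.67 on the log2 scale in vehicle and 0.72, 1.48 and 1.11 in inhibitor samples. For TAP2 the same difference was 2.35, 2.98 and 2.21 in vehicle and 1.81, 2.02 and 1.49 in inhibitor samples. Both sets separated the groups, by -0.63 for HLA-F and -0.74 for TAP2, with an exact two-sided permutation p = 0.1 each, the smallest that 3 against 3 samples allow. Without background correction the separations were smaller, -0.45 and -0.38, again with exact p = 0.1 each. For B2M the difference was 0.27, 0.03 and 0.24 in vehicle and 0.02, 0.07 and 0.05 in inhibitor samples, which overlapped (-0.14, exact permutation p = 0.3). On the whole array 3054 genes had several kept probes, and how often their probe differences separate the groups was not counted. Whether the separations of HLA-F and TAP2 are unusual for this table is therefore not known. The paired probes of HLA-F and of TAP2 are annotated to different accessions and those of B2M to the same one, and whether they read different transcripts was not tested.

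**Figure D4:**
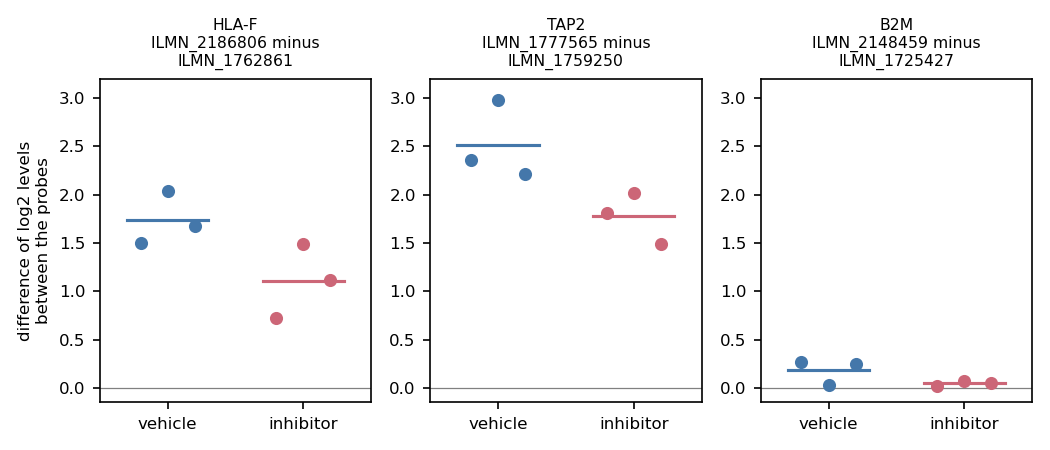
Difference between the log2 levels of the brighter and the dimmer probe of HLA-F, TAP2 and B2M on each array, vehicle in blue and inhibitor in red, with lines at the means. All inhibitor points of HLA-F and TAP2 lie below all vehicle points, those of B2M do not.

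Across arrays the levels of the genes were compared as description only. Among the 3 vehicle samples replicate 2 was the highest for 6 of the 9 genes, and among the inhibitor samples replicate 3 was the lowest for 6 of 9. Over the 36 pairs of genes, Pearson correlations across the 6 arrays ran from -0.73 to 0.92 with a median of 0.36, and 30 were above 0. HLA-C with TAP1 had 0.92 and HLA-E with TAP2 0.92, whereas B2M had values between -0.73 and 0.21 with the other 8. The 2 replicates were named after the levels had been seen, and the matching shares of all genes were not counted. No background of other genes was computed for the pairs either, so whether any of this is particular to the 9 genes is not known. These values describe 6 arrays of 2 groups that share their normalization. The genes whose levels were most like the mean standardized level of the 9 were RAC3, TNNI3 and MGRN1 (r = 0.99 each over 6 arrays, of 11250 genes compared), and 157 genes had r over 0.9.

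Peptides for loading are cut by the proteasome. The immunoproteasome, which interferons induce and whose subunits replace constitutive ones, and its activator PA28 had 0 of 4 tested genes past the threshold, with a median log2 fold change of -0.07. PSMB10, an immunoproteasome subunit, had levels of 10.80, 10.74 and 10.36 in vehicle and 10.14, 10.07 and 9.92 in inhibitor samples. The groups did not overlap, which was so in the lower direction for 13% of all genes. Its log2 fold change of -0.59 ± 0.17 missed the threshold (limma adjusted p = 0.0780) and passed it in 4 of 14 alternative settings. With median centring it was -0.40 (limma adjusted p = 0.490). PSME2, a PA28 subunit, had -0.10 ± 0.15 (adjusted p = 0.722). PSMB8, another subunit, had 4 probes, each detected on at most 1 array, and was not tested. Of the constitutive catalytic subunits 0 of 3 passed, with -0.25 ± 0.14 for PSMB6 (adjusted p = 0.325) and -0.18 ± 0.16 for PSMB7 (adjusted p = 0.526).

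Folding, trimming and export in the endoplasmic reticulum also had 0 of 9 tested genes past the threshold, with a median of 0.12. CANX, the chaperone calnexin, which holds new heavy chains, had 9.56, 9.59 and 9.60 in vehicle and 9.9997, 9.92 and 10.02 in inhibitor samples. The groups did not overlap, which was so in the higher direction for 18.5% of all genes, but the log2 fold change of 0.39 ± 0.14 missed the threshold (limma adjusted p = 0.134). It passed in 2 of 14 alternative settings, and its other probe had 0.46. ERAP2, a peptidase that trims peptides to class I length, had 12.32, 13.44 and 12.92 in vehicle and 13.54, 13.61 and 13.51 in inhibitor samples. Vehicle replicate 1 stood lowest and the groups did not overlap, and the log2 fold change was 0.66 ± 0.26 (adjusted p = 0.158), against -0.14 on its other probe and 0.26 averaged over both. It was 0.37 without vehicle replicate 1 (adjusted p = 0.284), and it passed in 2 of 14 alternative settings, without vehicle replicate 2 (0.93, adjusted p = 0.0478) and with a trend and robust prior (adjusted p = 0.0366). The only probe of PDIA3 was detected on 0 arrays, and whether its transcript was present was not tested.

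Among the factors that bind class I promoters 0 of 6 tested genes passed, with a median of -0.24. CREB1, of the family that reads the TGACG of the X2 box, had 11.72, 12.42 and 12.20 in vehicle and 12.58, 12.94 and 12.88 in inhibitor samples. The groups did not overlap, which was so in the higher direction for 18.5% of all genes. The log2 fold change of CREB1 was 0.68 ± 0.21 (limma adjusted p = 0.0882) and passed in 4 of 14 alternative settings. Its 3 other tested probes had 0.53, 0.29 and 0.11. NFYC, a subunit of NF-Y, which binds the Y box, had -0.43 ± 0.15 (adjusted p = 0.134), which passed in 1 of 14 alternative settings, the deposited processed values (-0.31, adjusted p = 0.0484), and was -0.15 with median centring. The only probe of NLRC5, the transactivator of class I genes, was detected on 0 arrays.

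**Figure D5:**
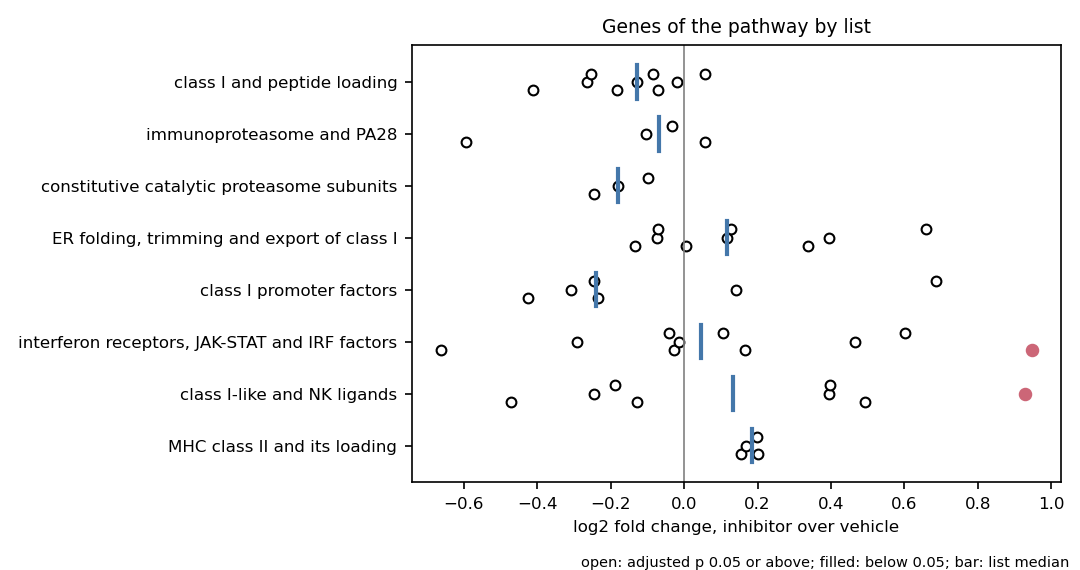
Log2 fold changes of inhibitor over vehicle for the 9 genes and 7 lists of the pathway; each circle is a gene, filled where its adjusted p was under 0.05, and bars are list medians. IFNAR1 at 0.95 and ULBP1 at 0.93 are the filled points.

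Of 10 tested interferon receptors, JAK-STAT and IRF genes 1 rose, 0 fell and 9 did not pass, with a median of 0.05. IFNAR1, a chain of the type I interferon receptor, had 6.78, 6.34 and 6.97 in vehicle and 7.58, 7.45 and 7.89 in inhibitor samples, and rose by 0.95 ± 0.21 in log2 units (limma adjusted p = 0.0351), or by 0.50 with the deposited processed values (adjusted p = 0.0187). The call was lost in 7 of 14 alternative settings, the omission of any single sample among them, where the log2 fold change stayed between 0.77 and 1.08. IFNAR2, the other chain of that receptor, had -0.66 ± 0.22 (limma adjusted p = 0.104) and 0.27 on its other tested probe. Of the 10 genes 5 lay above 0 and 5 below. Of 8 tested class I-like and natural killer ligand genes 1 rose, 0 fell and 7 did not pass, with a median of 0.13. Of these 8, 4 lay above 0 and 4 below. HLA-G, a further class I heavy chain named after its values were seen, had -0.47 ± 0.16 (limma adjusted p = 0.110). With the deposited processed values it was -0.19. Its groups did not overlap, which was so in the lower direction for 13% of all genes. ULBP1, a ligand of the natural killer receptor NKG2D, had 4.55, 4.74 and 5.23 in vehicle, with detection on 1 of 3 arrays, and 5.82, 5.63 and 5.86 in inhibitor samples. It rose by 0.93 ± 0.20 in log2 units (limma adjusted p = 0.0342), but by 0.25 with the deposited processed values, and the call was lost in 8 of 13 alternative settings, among them those without vehicle replicate 1 or 2 and without each inhibitor replicate. MHC class II genes, which serve antigen presentation to helper T cells, had 0 of 4 tested genes past the threshold, with 0.20 ± 0.21 for HLA-DRA (adjusted p = 0.594) and 0.20 ± 0.21 for HLA-DPA1 (adjusted p = 0.608). The other probe of HLA-DRA had 0.72 (adjusted p = 0.111 over all kept probes).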

How the data were processed

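The deposited table of the series gives, per the file headers, a linear signal intensity and a detection p-value for each probe and array, not normalized between arrays. The authors' processed value table was taken as log2 from its range and has near-equal array medians, while its transformation and base are not stated in the sources used here. The submitters' processing notes name lumi, with no version. For the tests, R 4.3.3 and limma 3.58.1 were applied to the intensities: neqc (normexp background from the detection p-values, offset 16, quantile normalization, log2), then lmFit and eBayes without covariates on the 19958 probes that 3 or more of the 6 arrays detected at p under 0.05, so a probe detected in 1 group only was kept too. Correcting for background makes changes of dim probes larger, and quantile scaling removes a shift shared by most genes. Symbols came from the platform annotation, updated through RefSeq gene IDs. The brightest kept probe stood for a gene, and p-values were adjusted by Benjamini-Hochberg over 11582 genes. Adjusted p-values and SEs are from this fit, except where an alternative setting is named beside the value. Other probes were adjusted over all kept probes. The number of arrays limits the precision. The members and the 7 pathway lists were chosen with earlier results of these data known. Named from each list were up to 4 genes past the threshold, or 2 with the smallest p, and outside the lists the 3 genes most like the members' mean level. IFNAR2 was added as the partner chain of IFNAR1, and HLA-G as a further class I heavy chain. The fit was tested on simulated data. Alternatives changed the background correction, scaling, filter, probe rule, eBayes prior, block and samples.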

Additional observations from a re-analysis of the deposited data

How the results depend on the processing

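Of 164 values of the 9 genes and their other probes under alternative settings, 145 kept direction and side of the threshold, 17 changed sign and 2, both of HLA-F, passed the threshold. The number of class I and peptide loading genes called was 1 without background correction and 1 with the deposited processed values, and 0 in the other settings. The number of all genes called was 1364, 1351 and 1240 without background correction, with the processed values and with a trend and robust prior, 40 with the replicate number as a block, and 4 to 435 when single samples were left out. Same-numbered samples did not deviate together (correlations of -0.14, 0.02 and 0.12 over all kept probes), so the number is not taken as a pairing. The block called 0 of the 9 genes, and ended the calls of IFNAR1 and ULBP1 (limma adjusted p = 0.0581 and 0.0657). With median centring, log2 fold changes turned positive for HLA-B (0.045), HLA-C (0.28), TAP1 (0.13), TAP2 (0.024), TAPBP (0.24), CALR (0.12) and PSME2 (0.07), where the median gene had 0.24, and the mean of probes gave 0.12 for TAP2. When single samples were left out, HLA-C ranged from -0.10 to 0.040, B2M from -0.0025 to 0.14, TAPBP from -0.21 to 0.18 and CALR from -0.26 to 0.075. The cause of these changes was not tested. The settings with single samples left out kept the normalized values and dropped 1 array from the fit. Signal near background limits the values of ULBP1 and of the dimmer TAP2 probe.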
